A study of Mus musculus with 24 samples.

Results

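The Rab genes encode small GTPases that mark the membranes of the secretory and endocytic routes. Members were all genes whose platform symbol is Rab followed by a number and an optional letter or digit, measured by a probe set with that symbol alone. The rule found 59 genes among the 19938 genes of the array with such a probe set, and 50 of the 59 were bright enough to be tested. The tissue was the suprachiasmatic nucleus (SCN), the clock of the hypothalamus that times daily rhythms. All mice were C57/BL6 and shared 1 history, entrainment to equal light and dark spans and then constant darkness without treatment or genetic change. Each of the 24 arrays carried RNA pooled from 3 mice, and collections ran at steps of 2 h over 2 cycles of circadian time (CT). The first cycle held 12 arrays, starting at CT 18 and ending at CT 40. The second held the same 12 circadian times, starting at CT 42 and ending at CT 64. The labels used here gave neither age nor sex. No time point had a replicate. Precision is thus limited by the number of arrays, and each p-value measures the spread of these pooled samples around the fitted curve.

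A Rab protein is active on a membrane when it holds GTP and is drawn back into the cytosol, bound to a dissociation inhibitor, when it holds GDP. Exchange factors load GTP, GTPase-activating proteins (GAPs) speed its hydrolysis, and effectors such as motors and tethers bind the active form. Prenyl groups added to the carboxy-terminal end anchor the protein. In neurons Rab3 and Rab27 proteins act at synaptic vesicles and dense-core granules, the stores from which SCN neurons release transmitters and peptides such as Vip and Avp. Rab1, Rab2 and Rab6 act between endoplasmic reticulum and Golgi, Rab5 at early endosomes, Rab11 at recycling endosomes, and Rab7 at late endosomes and lysosomes.

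Values are log2 intensities, and levels are compared within a gene only, since probe sets differ in brightness. The SCN neuron markers Vip, Avp, Six6, Lhx1, Nms, Prok2, Rgs16, Vipr2, Grp and Rora all passed the brightness filter, and 5 of these 10 followed a 24-h rhythm. Array medians lay between 6.24 and 6.35. The mean of 1194 olfactory and vomeronasal receptor genes, taken here as array background since an SCN sample should hardly express them, stood 0.34 above its series mean at CT 40, 0.19 at CT 62 and 0.16 at CT 64. On the other arrays it lay between -0.15 and 0.04. The 3 arrays of high background all fall in the early subjective night, so the fits, the paralogue ratios and the counts of early peaks and non-overlapping groups were also computed without them. In bulk tissue, fewer cells of a type and less RNA per cell cannot be told apart.

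The first question was which Rab transcripts follow the circadian day. In limma's 24-h fit with Benjamini-Hochberg adjustment over all 13956 genes tested, 7 of 50 Rab genes (14%) were called at an adjusted p under 0.05, against 7.65% of all genes tested. They were Rab36, Rab3c, Rab6b, Rab1a, Rab5b, Rab14 and Rab40c. All 7 had fitted peaks in the early subjective day, between CT 0.26 and CT 3.26, and amplitudes (mean to peak) between 0.12 and 0.27 on the log2 scale. Of all genes tested, 4.37% were called with a peak from 0 to 6 h, which is 57.2% of all called genes. At an unadjusted p under 0.05 the count was 19 of 50 (38%), against 27.5% of all genes. Without CT 40, CT 62 and CT 64 this unadjusted count was 9 (18%), against 23.9% of all genes. With array background as a covariate it was 6 (12%), against 20.2%. The share of Rab genes was thus below that of all genes in both of these fits. With all 24 arrays and an adjusted p under 0.01 limma called 0 Rab genes, against 1.22% of all genes.

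**Figure D1:**
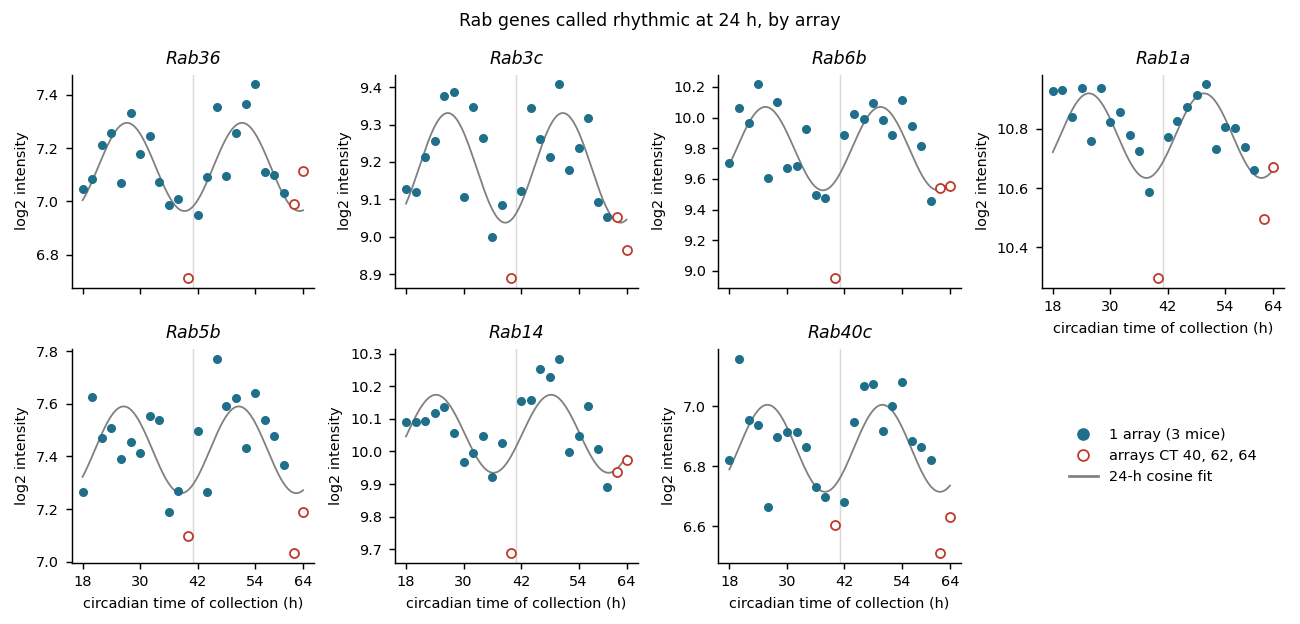
Log2 intensity of the 7 called Rab genes (vertical axes) on each of the 24 arrays against circadian time of collection in hours (horizontal axes), with the fitted 24-h cosine as a line, the boundary between the cycles as a grey line, and the arrays at CT 40, 62 and 64 as open circles. The mean of the 7 relative to the series mean was 0.14 at CT 24, -0.03 at CT 26 and 0.13 at CT 28. In the next cycle it was 0.14 at CT 48, 0.17 at CT 50 and 0.05 at CT 52. CT 40 is the lowest array for 5 of the 7.

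Calls are listed below by the site where each Rab acts. The groups, of 4 to 14 tested genes, are too small to set apart from the 7.65% of all genes called. Their counts thus draw no contrast between sites. Among Rab genes of the endoplasmic reticulum and Golgi, 3 of 14 tested were called, Rab6b, Rab36 and Rab1a. Rab6b, the Rab6 form enriched in brain that acts in traffic back from the Golgi, ranged over the 24 arrays from 8.95 at CT 40 through a median of 9.89 to 10.2 at CT 24. Its 6 arrays at CT 0, 2 and 4 of both cycles lay between 9.61 and 10.2, and its 6 arrays at CT 12, 14 and 16 between 8.95 and 9.56, without overlap. It had the largest amplitude of the 50, 0.27 ± 0.06 (SE), a 1.46-fold difference from trough to peak, with a peak at 1.51 h and a limma adjusted p of 0.0155. The fitted peaks in each cycle alone were 1.50 and 1.53 h. Rab36, a Golgi-associated relative of Rab34, ran from 6.71 at CT 40 through a median of 7.10 to 7.44 at CT 54. Its early day arrays (7.07 to 7.36) were mostly above its early night arrays (6.71 to 7.11), and the groups overlapped. Rab36 had the smallest p of the family, with an amplitude of 0.17 ± 0.03 (SE), a peak at 3.26 h in both cycles together and a limma adjusted p of 0.0102. Rab1a, which directs vesicles from the endoplasmic reticulum to the Golgi, lay between 10.3 at CT 40 and 10.95 at CT 50, with a median of 10.8. Its early day arrays (lowest 10.731, at CT 52) stood only just above its early night arrays (highest 10.726, at CT 36). The amplitude was 0.14 ± 0.04 (SE) and the peak 1.53 h (limma adjusted p = 0.0318).

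Of 7 Rab genes of regulated exocytosis tested, Rab3c was called. Rab3c, a synaptic vesicle Rab, ranged from 8.89 at CT 40 through a median of 9.20 to 9.41 at CT 50. Its early day arrays (9.18 to 9.41) all lay above its early night arrays (8.89 to 9.08). The amplitude was 0.15 ± 0.03 (SE), the peak 2.71 h and the limma adjusted p 0.0118. The other vesicle Rabs of the same subfamily did not pass, with fitted amplitudes of 0.10 ± 0.03 (SE) for Rab3a (limma adjusted p = 0.116) and 0.11 ± 0.05 (SE) for Rab3b (limma adjusted p = 0.227). Rab3d was below the brightness filter.

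Among the 8 early endosome Rabs tested, Rab5b and Rab14 were called. Rab5b, which promotes fusion of early endosomes, ranged from 7.03 at CT 62 through a median of 7.46 to 7.77 at CT 46. The early day arrays (7.39 to 7.62) did not overlap the early night arrays (7.03 to 7.37). Its fitted peak lay at 2.57 h, with an amplitude of 0.16 ± 0.04 (SE) and a limma adjusted p of 0.0339. A second Rab5b probe set gave 0.17 and 2.47 h. Rab14, which acts between the Golgi and endosomes, ranged from 9.69 at CT 40 through a median of 10.1 to 10.3 at CT 50. The groups overlapped, with early day arrays from 9.999 and early night arrays up to 10.03. Its amplitude was 0.12 ± 0.03 (SE), with the earliest peak of the 7, 0.26 h (limma adjusted p = 0.0386).

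Of 5 tested Rabs in the group of cilium-linked and less studied members, Rab40c was called. Rab40c, a Rab with a SOCS box that recruits a ubiquitin ligase, ranged from 6.51 at CT 62 through a median of 6.89 to 7.16 at CT 20. Early day and early night arrays overlapped. The amplitude was 0.15 ± 0.04 (SE), the peak 1.93 h and the limma adjusted p 0.0437.

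No member of the 3 other groups was called in limma, against 7.65% of all genes tested (27.5% at an unadjusted p under 0.05). There were 6 late endosome and lysosome Rabs (3 unadjusted) and 6 recycling endosome Rabs (1 unadjusted). The last group held 4 Rabs of exit to the plasma membrane (0 unadjusted). The member of smallest p in each of the 3 groups was Rab12 (amplitude 0.14 ± 0.04 SE, peak 4.74 h, limma adjusted p = 0.067), which sends receptors to lysosomes, Rab11b (0.12 ± 0.04 SE, 3.94 h, limma adjusted p = 0.128), and Rab8a (0.08 ± 0.03 SE, 1.17 h, limma adjusted p = 0.228), which acts in exocytosis and at the cilium. Rab7, the GTPase of late endosomes and lysosomes, had an amplitude of 0.11 ± 0.04 (SE) and a peak at 2.73 h (limma adjusted p = 0.089). Just beyond the threshold stood also Rab5a (0.09 ± 0.03 SE, peak 1.42 h, limma adjusted p = 0.0727) and the Golgi Rab6a (0.09 ± 0.03 SE, 1.50 h, limma adjusted p = 0.0799). Rab44, a large Rab of blood cells with an added calcium-binding domain, had a fitted peak at the opposite time, 16.2 h, with its highest array at CT 40 (6.45), an amplitude of 0.13 ± 0.04 (SE) and a limma adjusted p of 0.0703.

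Over the 50 tested members, 34 (68%) had a fitted peak from 0 to 6 h, against 38.2% of all genes tested, most of them without a call. Without CT 40, CT 62 and CT 64 the count was 22 (44%), against 29.7% of all genes. With all 24 arrays another 3 peaked from 6 to 12 h, 9 from 12 to 18 h and 4 from 18 to 24 h. The median amplitude was 0.08 for the members and 0.07 for all genes. The 9 members below the filter were Rab17, Rab19, Rab25, Rab32, Rab38, Rab39, Rab3d, Rab42 and Rab7b. With no filter, their limma adjusted p-values ran from 0.106 (Rab38) to 0.946 (Rab42).

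**Figure D2:**
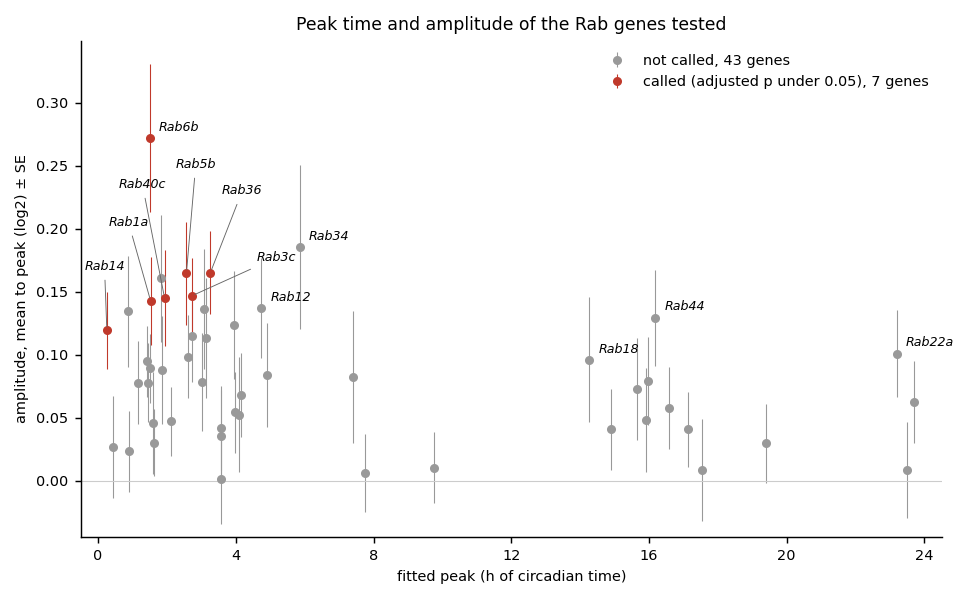
Fitted 24-h peak (hours of circadian time, horizontal) and amplitude (log2, mean to peak, vertical, bars ± SE) of the 50 tested Rab genes, with the 7 called genes in red. The called genes lie between 0.26 and 3.26 h, and Rab34 has the largest amplitude among the genes not called, 0.19 at 5.85 h.

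Fewer members were called without the arrays of high background. CT 40 was the lowest array for 25 of 50 members (50%), against 29.6% of all genes tested. There the 7 called members stood on average at -0.43 relative to their series means and the 43 others at -0.19, while all tested genes stood at -0.09. Without CT 40, CT 62 and CT 64 limma called 3 members, Rab36 (adjusted p = 0.0229), Rab6b (0.0429) and Rab14 (0.0475), against 4.87% of all genes. The amplitudes of the 3 were then 0.15, 0.21 and 0.10. When array background entered as a covariate, limma called 1 member, Rab34, and none of the 7, against 3.83% of all genes. Rab36 and Rab3c came closest among the 7, with amplitudes of 0.13 ± 0.03 (SE) and 0.12 ± 0.03 (SE) and limma adjusted p-values of 0.0607 and 0.0796. Rab34 had there an amplitude of 0.19 ± 0.05 (SE), a peak at 9.26 h and a limma adjusted p of 0.045. Quantile normalisation left 4 of the 7, Rab36, Rab6b, Rab5b and Rab40c, against 7.34% of all genes. Changes of filter, weights, prior, centring, probe set rule, rank scale and time trend gave 5 to 7 called members. The count was 5 with no filter (4% of all genes) and with a linear time term (6.43%), and 6 with array weights (11.2%) and on ranks (8.24%). It was 7 with the 50th percentile filter (12.4%), median centring (8.11%), a trended prior (8.17%) and the mean of all probe sets (7.72%).

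**Figure D3:**
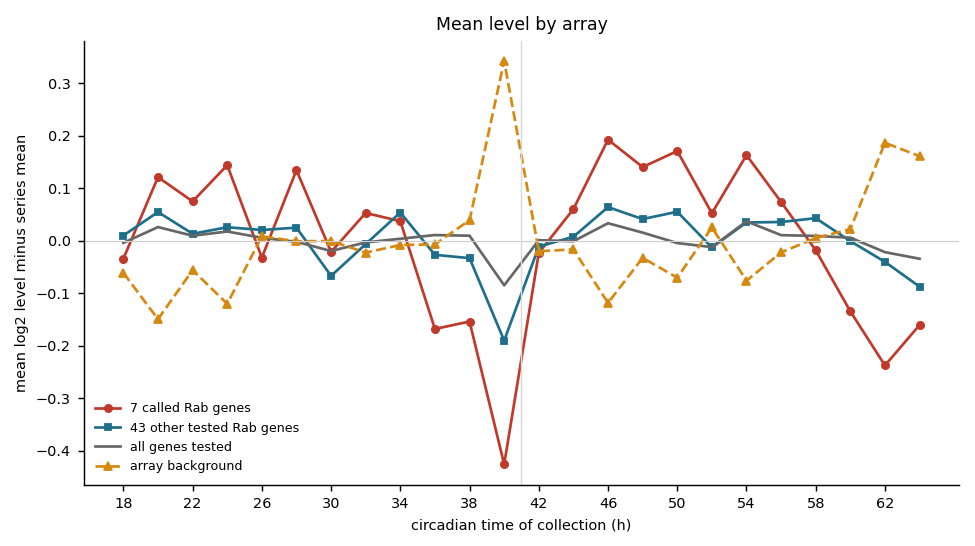
Mean log2 level on each array minus the series mean (vertical) against circadian time of collection in hours (horizontal), for the 7 called Rab genes, the 43 other tested Rab genes, all genes tested and the array background. At CT 40 the background is 0.34 above its mean and the called Rab genes stand at -0.43 relative to theirs.

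Markers of neurons and some of astrocytes moved with these genes. Of 8 pan-neuron markers 3 were called for the 24-h rhythm, Snap25 with a peak at 1.77 h, Stmn2 at 1.57 h and Rbfox3 at 3.07 h, and the list mean peaked at 2.61 h (amplitude 0.10). The summed intensity of the 8 markers ran from 8152 to 11710 in the first cycle and from 9335 to 11760 in the second, and its list mean was lowest at CT 40. Without the 3 arrays of high background that mean peaked at 1.99 h (amplitude 0.07). Among the pan-neuron markers not called, amplitudes with all arrays ran from 0.03 (Nefl) and 0.05 (Tubb3) to 0.13 (Syt1). Of 9 astrocyte markers 1 was called in limma, Aldoc with a peak at 2.41 h, and 5 passed an unadjusted p under 0.05. Slc1a3 and Slc1a2 had fitted peaks at 1.55 and 2.08 h, and Gja1 at 22.3 h. Those of Agt (10.2 h), Fgfr3 (12.0 h), Gjb6 (15.7 h), Gfap (17.0 h) and Aqp4 (18.9 h) lay at other times. The astrocyte list thus did not move as 1 set. The astrocyte list mean peaked at 1.21 h (amplitude 0.03), was lowest at CT 40 (-0.41), and peaked at 16.6 h without the 3 arrays. The summed intensity of the 9 astrocyte markers ran from 4623 to 7940 in the first cycle and from 5956 to 8374 in the second. With the pan-neuron mean as a covariate, an alternative chosen after seeing the data, limma called 0 Rab genes, against 0.989% of all genes, and 3 (6%) passed an unadjusted p under 0.05, against 10.8% of all genes. Of 11 oligodendrocyte markers 0 were called in limma (2 at an unadjusted p under 0.05). Their mean had its fitted peak at 14.6 h (amplitude 0.10), or at 14.9 h (amplitude 0.23) without the 3 arrays, and was also lowest at CT 40, and their summed intensity ran from 4890 to 10150 in the first cycle and from 5713 to 9898 in the second. With the oligodendrocyte mean as a covariate, limma called 17 Rab genes, among them all 7, against 24.1% of all genes. The part of cell composition in the Rab rhythms was not tested.

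**Figure D4:**
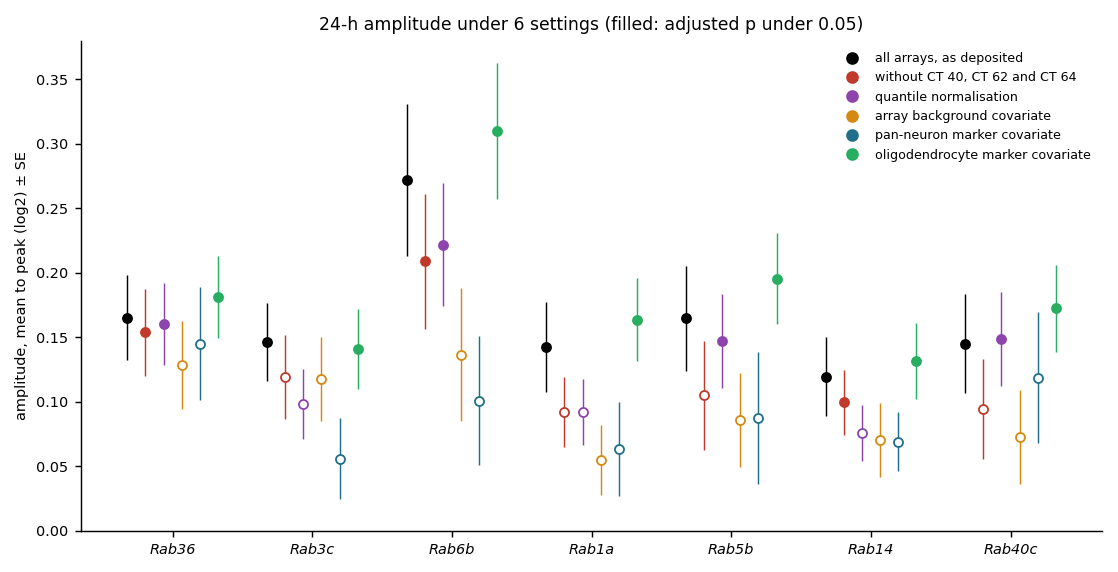
Amplitude of the 24-h rhythm (log2, vertical, bars ± SE) of the 7 called Rab genes under 6 settings of the fit, with filled circles where the limma adjusted p was under 0.05. All 7 are filled with the oligodendrocyte covariate, and none with the array background or the pan-neuron covariate.

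Single arrays also decided calls. Rab36, Rab3c and Rab6b were called in all 24 limma fits that left out 1 array each, Rab1a in 18, Rab5b and Rab14 in 16 each, and Rab40c in 6. The count of called members fell to 3 without CT 48 or CT 62 and to 4 without CT 24, CT 36, CT 50 or CT 64, and it was 10 without CT 26 or CT 30. The share of all genes called in these 24 fits is not given here. Whether these counts moved more than those of all genes cannot be read from them. Each cycle alone, with 12 arrays, gave 0 calls among Rab genes in limma, against 0.115% of all genes in the first and 0.58% in the second. Peaks fitted to each cycle alone differed by 0.0081 h (Rab36) to 1.98 h (Rab40c) in the 7.

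A comparison of the 6 arrays at CT 0, 2 and 4 with the 6 at CT 12, 14 and 16 describes the same arrays without a curve. For 5 members all early day arrays stood above all early night arrays, against 3.98% of all genes tested, and for 0 members the reverse held, against 0.86% of all genes. They were Rab3c, Rab6b, Rab1a and Rab5b, and Rab6a, whose values were 9.27 to 9.42 in the early day and 9.05 to 9.21 in the early night. The early day mean of Rab6b was 9.98 ± 0.22 (SD, n = 6) and its early night mean 9.41 ± 0.23 (SD, n = 6), a difference of 0.57. For Rab3c the means were 9.30 ± 0.10 (SD, n = 6) and 9.01 ± 0.07 (SD, n = 6). The early night group holds all 3 arrays of high background. With the 3 remaining night arrays, 7 members had all early day arrays above them, against 6.2% of all genes, namely the same 5 with Rab36 and Rab3a, and 1, Rab31, had all below, against 5.45%.

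Rab paralogues, named by the same number, allowed a comparison within an array. The log2 ratio of each of 16 pairs was fitted with a 24-h curve and tested by a two-sided permutation of the 24 times with 100000 resamples, a test chosen after seeing the data, with Benjamini-Hochberg adjustment over the 16 pairs, some of which share a gene. The ratio was rhythmic in 3 pairs, Rab6a over Rab6b, Rab40b over Rab40c and Rab9 over Rab9b. In the first pair the ratio peaked at 13.5 h with an amplitude of 0.18 ± 0.05 (SE) (permutation p = 0.00272, adjusted 0.0431), and the amplitudes of the single genes were 0.09 for Rab6a and 0.27 for Rab6b. Rab40b over Rab40c had an amplitude of 0.18 ± 0.05 (SE; permutation p = 0.00539, adjusted 0.0431). Rab9, which returns receptors from late endosomes to the Golgi, had an amplitude of 0.01 against 0.13 for Rab9b, and their ratio one of 0.14 ± 0.04 (SE; permutation p = 0.00926, adjusted 0.0494). Without CT 40, CT 62 and CT 64, 0 of the 16 pairs passed (2 at an unadjusted permutation p under 0.05). With the array background regressed out, 0 passed and 0 had an unadjusted p under 0.05. The Rab3a and Rab3c amplitudes did not differ detectably, with a ratio amplitude of 0.05 ± 0.03 (SE; permutation p = 0.268, adjusted 0.535).

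**Figure D5:**
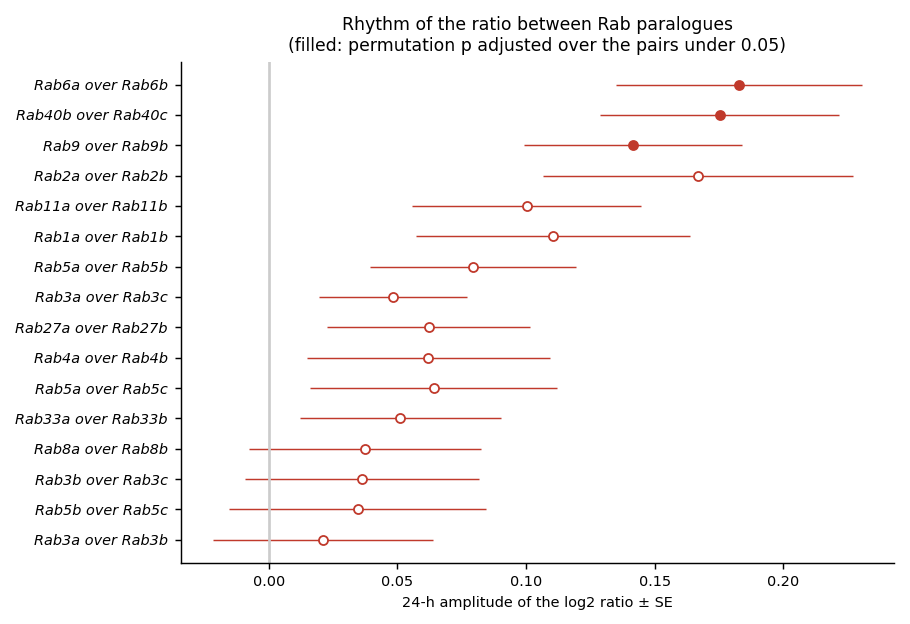
Amplitude of the 24-h curve fitted to the log2 ratio of each of 16 Rab paralogue pairs (horizontal, bars ± SE), with pairs on the vertical axis and filled circles where the permutation p adjusted over the pairs was under 0.05. The 3 filled pairs are Rab6a over Rab6b, Rab40b over Rab40c and Rab9 over Rab9b, at 0.18, 0.18 and 0.14.

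The sequence before the start of each gene was read from RefSeq's promoter table (GRCm38.p6), which holds 48 of the 59 members and 6 of the 7 called ones, all but Rab36. The 250 bases upstream of the start are shown for Rab6b and Rab3c, the called members of largest amplitude and of smallest p among those with an entry. They are written 5′ to 3′ on the gene's strand, with the GC box (GGGCGG on either strand) in capitals. Rab6b lies at chr9:103111824-103112073 on the plus strand and Rab3c at chr13:110280207-110280456 on the minus strand.
Rab6b: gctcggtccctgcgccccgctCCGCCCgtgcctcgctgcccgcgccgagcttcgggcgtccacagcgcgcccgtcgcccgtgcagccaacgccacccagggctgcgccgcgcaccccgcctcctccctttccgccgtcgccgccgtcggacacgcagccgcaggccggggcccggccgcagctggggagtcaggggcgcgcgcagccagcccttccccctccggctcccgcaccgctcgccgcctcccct
Rab3c: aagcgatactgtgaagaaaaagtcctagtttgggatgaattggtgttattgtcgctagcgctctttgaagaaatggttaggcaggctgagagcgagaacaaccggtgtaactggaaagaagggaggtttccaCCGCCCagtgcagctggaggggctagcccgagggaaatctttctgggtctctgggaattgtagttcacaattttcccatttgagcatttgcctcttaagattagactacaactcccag
The GC box, a site of Sp1-family factors common in housekeeping promoters, stood in 6 of 6 called members with an entry and in 36 of 48 members (75%). Of these 36 members 33 passed the brightness filter. The GC box stood in 35.4% of all 27025 genes in the table and in 61.0% of the 11093 tested genes with an entry. Some genes, such as Rab43, Rab23 and Rab27a, have more than 1 start in the table. A gene counts where any of its starts has a match.

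Motifs linked to the clock were searched on both strands in the 250 bases before each listed start. The E-box CACGTG, bound by Clock and Bmal1 dimers, stood in 5 of 48 members (10.4%) and in 0 of 6 called members. It stood in 6.86% of all genes in the table and in 9.50% of tested genes with an entry. The 5 members were Rab20, Rab21, Rab23, Rab27a and Rab5a, none called, with limma adjusted p-values from 0.0727 (Rab5a) to 0.988 (Rab20). Their E-boxes are shown in capitals with up to 15 bases on either side, because they are the family's matches to this motif. Rab5a has a second E-box 95 bases before its start, not shown. The windows lie at chr8:11478666-11478701 (Rab20, minus strand), chr10:115315601-115315636 (Rab21, minus), chr1:33719663-33719698 (Rab23, plus), chr9:73063898-73063922 (Rab27a, plus) and chr17:53478984-53479019 (Rab5a, plus).
Rab20: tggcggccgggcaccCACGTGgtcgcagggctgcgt
Rab21: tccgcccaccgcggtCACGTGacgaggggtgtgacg
Rab23: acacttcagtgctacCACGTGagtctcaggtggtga
Rab27a: cttgCACGTGctcctccgtctgtct
Rab5a: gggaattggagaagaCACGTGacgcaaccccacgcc
The E-box variant CACGTT, the D-box TTATGTAA, the ROR element TAGGTCA and the cAMP response element TGACGTCA each stood in 0 of the 6 called members and in 2, 1, 1 and 2 of the 48. They stood in 4.50%, 0.977%, 2.55% and 1.77% of all genes in the table. Among tested genes with an entry the shares were 5.26%, 0.649%, 1.93% and 2.90%. Each of these motifs stood in 1 member that passed the brightness filter. The shorter element TGACG, which the full cAMP response element contains, stood in 24 of 48 members (50%). Of these 24 members 20 passed the brightness filter. Among the 6 called members TGACG stood in 2, Rab5b and Rab40c. It stood in 19.8% of all genes in the table and in 28.8% of tested genes with an entry. A match is a description of these letters only.

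The second question was whether Rab levels differed between the cycles. With a term for cycle added to the 24-h curve, limma called 0 members, and 3 (6%) passed an unadjusted p under 0.05, against 0% and 8.71% of all genes. The arrays of the cycles separated fully in 0 members and in 0% of all genes tested. Rab27b, which docks secretory granules, ran from 6.97 through a median of 7.14 to 7.33 in the first cycle and from 6.87 through 7.001 to 7.16 in the second. The cycles overlapped, and the second was lower by a fitted -0.13 ± 0.04 (SE; limma adjusted p = 0.393). Rab3b was 9.30 ± 0.22 (SD, n = 12 arrays) in the first and 9.47 ± 0.11 (SD, n = 12 arrays) in the second cycle, a fitted difference of 0.16 ± 0.06 (SE; limma adjusted p = 0.471). Rab34, which acts in cilium formation and macropinocytosis, was 6.81 ± 0.34 (SD, n = 12 arrays) and then 7.01 ± 0.15 (SD, n = 12 arrays), and its lowest array was CT 40 at 5.82. Its difference of 0.20 ± 0.09 (SE) had a limma adjusted p of 0.519, and 0.0458 at a difference of 0.21 with the array background as a covariate, where 0.473% of all genes were called. Of the 50 members 36 were higher and 14 lower in the second cycle. The median difference was 0.03 against 0.00310 for all genes. The share of all genes that were higher is not given here. CT 40, where the 50 members averaged -0.22 and all genes -0.09 relative to series means, lies in the first cycle. It was also the lowest array of Rab3b, at 8.74. The part of that array in the count was not tested. Anterior pituitary markers reached their highest levels in the first cycle, with the list mean highest at CT 20. The summed intensity of 7 such genes ran from 283 to 5774 in the first cycle and from 256.5 to 597.5 in the second. Of the 4 tested, 0 were called between cycles in limma and 3 passed an unadjusted p under 0.05 (median difference -0.87). The part of this tissue in the Rab differences was not tested.

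A change in the 24-h curve itself between cycles was called in 0 members in limma, 0 at an unadjusted p under 0.05, against 2.42% of all genes unadjusted and 0% called. The smallest p-values belonged to Rab15, a Rab of neuronal recycling endosomes, Rab8a and Rab40c, with interaction amplitudes of 0.16 ± 0.08 (SE), 0.13 ± 0.06 (SE) and 0.14 ± 0.08 (SE) and limma adjusted p-values of 0.9999 each.

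Peaks at 12-h spacing were fitted beside the 24-h terms. In limma 0 members were called, against 0.0358% of all genes, and 18 (36%) passed an unadjusted p under 0.05, against 21.9%. Rab40c had the smallest p, with a 12-h amplitude of 0.13 ± 0.03 (SE) and peaks at 8.77 h and again 12 h later (limma adjusted p = 0.115). Rab5b followed with 0.13 ± 0.03 (SE) and 9.06 h (limma adjusted p = 0.125), and Rab7 with 0.11 ± 0.03 (SE) and 8.99 h (limma adjusted p = 0.13). Under each alternative limma also called 0 members, against 0% of all genes with no filter, without the 3 arrays or with array background as covariate, 0.0143% after quantile normalisation and 0.0502% with a trended prior. The share was 0.0573% after median centring, with array weights or with the mean of all probe sets, and 0.0802% with the 50th percentile filter. The median 12-h amplitude was 0.07 for the members and 0.06 for all genes.

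Regulators and effectors of Rab proteins were described from 4 lists of 130 genes, of which 113 were tested. For the 24-h rhythm limma called 1 of them, against 7.65% of all genes, and 24 passed an unadjusted p under 0.05, against 27.5% of all genes. Their median amplitude was 0.07, as for all genes tested. The called gene was Dennd6b, of the DENN-domain exchange factors, 1 of 29 exchange factors tested. It ranged from 7.04 at CT 40 through a median of 7.72 to 7.95 at CT 32. The amplitude was 0.18 ± 0.04 (SE), the peak 5.45 h and the limma adjusted p 0.0147. It was called in all 24 limma fits that left out 1 array. Its adjusted p was 0.0255 without the 3 arrays of high background and 0.0142 with array background as covariate.

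Among the 8 tested genes of Rab prenylation and membrane extraction 0 were called in limma (2 at an unadjusted p under 0.05). Rabif, which binds Rabs free of nucleotide, had an amplitude of 0.18 ± 0.06 (SE; limma adjusted p = 0.119), and Chml, an escort of Rabs to the prenylating enzyme, 0.16 ± 0.06 (SE; limma adjusted p = 0.147). Both were lowest at CT 40, where the list mean stood at -0.53 relative to its series mean. Of 35 GAPs 0 were called in limma (8 unadjusted), with Sgsm1 at 0.13 ± 0.03 (SE; limma adjusted p = 0.0536) and Tbc1d10a at 0.10 ± 0.03 (SE; limma adjusted p = 0.0843) first by p. Of 41 effectors 0 were called in limma (9 unadjusted). Myo5a, the motor that carries vesicles on actin, had an amplitude of 0.11 ± 0.03 (SE; limma adjusted p = 0.0664). Rab11fip2, which links Rab11 to that class of motor, had 0.14 ± 0.04 (SE; limma adjusted p = 0.0703).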

How the data were processed

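Arrays were Affymetrix MoGene 1.0 ST, per the labels hybridised with amplified, biotin-labelled RNA. The deposited values are log2 intensities that the authors normalised by RMA (version 1.3.1.187) in Affymetrix Expression Console, per the submitters' processing notes; further settings are not given in the sources used here. RMA compresses small differences of dim probe sets.

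Of 35556 probe sets, 21789 carried 1 gene symbol in the platform annotation, and each of 19938 genes took its probe set of highest mean. The 59 Rab symbols all matched RefSeq. Rab2a, Rab5b and Rab11b had 2 probe sets each; those of Rab2a differed in fitted peak (19.4 and 0.97 h). Genes were tested where their mean reached the 30th percentile of all means, log2 5.52. Time entered limma 3.58.1 (R 4.3.3; lmFit, eBayes) as cosine and sine terms on all 24 arrays; F tests and the two-sided test of the cycle term were Benjamini-Hochberg adjusted over 13956 genes at a threshold of 0.05. Tables and figures used matplotlib 3.10.9, pandas 2.3.3 and NumPy 2.4.6 in Python 3.11.15. Fits were tested on simulated data with independent noise for each gene and no array effect shared between genes. That test thus does not cover the 3 arrays of high background.

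Members, gene lists and tests were chosen with earlier results of these data known. Named were all called members, further members by p up to 12, the first by p in each role, the 3 of smallest p in each other comparison, and of each regulator list its called members or the 2 of smallest p. Genes named for the early day comparison, the paralogue pairs and the motifs were chosen after their values were seen. Alternatives covered filters, normalisation, priors, weights, covariates, ranks and arrays left out. Besides the marker lists given with the results, those of microglia (0 of 8 in limma, 1 unadjusted), endothelial and mural cells (1 of 8), ependyma (0 of 5, 1 unadjusted) and anterior pituitary (0 of 4, 2 unadjusted, list mean highest at CT 20) were examined for the 24-h rhythm.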

Additional observations from a re-analysis of the deposited data

How the results depend on the processing

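Of the Rab genes 7 were called for the 24-h rhythm with all arrays. The count was 4 after quantile normalisation, 3 without CT 40, CT 62 and CT 64, and with covariates 1 (array background), 17 (oligodendrocyte mean) and 0 (pan-neuron mean); it was 0 in the first and 0 in the second cycle alone (12 arrays each), 0 at a threshold of 0.01, and 3 to 10 when 1 array was left out. Under the other 8 settings it was 5 to 7. For the change between cycles 0 became 1 with the array background. For the change in rhythm and the 12-h rhythm the count was 0 under every alternative run. Of the paralogue pairs 3 passed; 0 did so without these 3 arrays, and 0 once array background was regressed out. For regulators and effectors 1 became 4 with the 50th percentile filter (12.4% of all genes) and 3 after quantile normalisation (7.34%). The count was 2 after median centring (8.11%), without the 3 arrays (4.87%), with the array background (3.83%) and with a trended prior (8.17%). It was 3 with array weights (11.2%), and 1 to 5 with 1 array left out, where shares of all genes are not given. The causes were not tested. Fitted peaks of the 7 called genes moved by at most 3.59 h (Rab14, pan-neuron covariate) over the settings other than single arrays left out. Those of 16 uncalled members moved by over 6 h under some setting, among them Rab3a to 14.4 h and Rab3b to 12.3 h with the pan-neuron covariate and Rab9 to 0.64 h in the first cycle alone. The labels carry no replicate numbers; pairing arrays of the 2 cycles by circadian time gave 0 calls between cycles. Signal over background limits the 9 dim members, and 1 array a time limits all tests.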
